A study of Mus musculus with 38 samples.

Results

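Sperm small RNA was compared between mice kept on a protein restricted diet throughout life and mice kept on the control diet throughout life. All animals were inbred C57BL6/J males. In the control group (CTCT) the mother received a 20% protein diet through pregnancy and lactation, until weaning at 21 days, and the son stayed on 20% protein, and in the lifelong restricted group (PRPR) mother and son both received 8% protein, until the sons were killed at 11 to 13 weeks of age. The 20 mice compared (10 CTCT and 10 PRPR) were taken by their diet group out of 38 mice with sperm small RNA libraries. The other 18 libraries came from mice restricted only after weaning (CTPR, 9 mice) or only before weaning (PRCT, 9 mice). Each CTCT and PRPR mouse came from a litter of its own. The littermates 47I1 and 47I2 have deposited labels that are the reverse of the study's list of mice. Mouse 47I2 is CTCT in the list but CTPR in its label, and 47I1 is CTPR in the list but CTCT in its label. The list was followed here, so 47I2 was counted as CTCT, and results that change without this litter are given both ways.

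Mature sperm carry little cytoplasm, and their small RNA is a mixture of tRNA fragments, miRNAs, piRNAs and breakdown products of longer RNAs. tRNA fragments are pieces cut from transfer RNAs, and in sperm the 5′ part of the molecule is the usual piece. miRNAs guide the silencing of messenger RNAs through a short seed, and piRNAs are germ line RNAs best known for silencing transposons. Dietary change in fathers has been studied through all of these classes, because sperm RNA enters the egg at fertilisation.

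The reads were counted against named miRNA hairpins, tRNA isoacceptors (all tRNAs that share an anticodon), tRNA ends, piRNA names and broad annotation classes. Counts per hairpin do not separate the arms of a miRNA. The mature sequences below are given because these miRNAs were among the most abundant hairpins or belong to the germ line list described further on. They were taken from RefSeq (build GRCm38.p6), are written 5′ to 3′, and have the seed (bases 2 to 8) in capitals. miR-148a-3p lies at chr6:51269829-51269850 (minus strand), miR-21a-5p at chr11:86584120-86584141 (minus), miR-10a-5p at chr11:96317186-96317208 (plus) and let-7g-5p at chr9:106178846-106178867 (plus). miR-34c-3p lies at chr9:51103044-51103065 (minus). miR-881-3p lies at chrX:66801954-66801975, miR-741-3p at chrX:66796809-66796831 and miR-871-3p at chrX:66810438-66810460, all on the minus strand. Of 55 hairpins looked up, 47 were matched by name.
miR-148a-3p: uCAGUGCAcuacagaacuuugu
miR-21a-5p: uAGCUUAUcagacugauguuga
miR-10a-5p: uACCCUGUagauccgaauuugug
let-7g-5p: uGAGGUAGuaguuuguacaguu
let-7f-5p: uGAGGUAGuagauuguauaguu
miR-34c-3p: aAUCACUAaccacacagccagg
miR-881-3p: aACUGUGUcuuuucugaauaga
miR-741-3p: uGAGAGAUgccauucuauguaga
miR-871-3p: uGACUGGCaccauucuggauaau
miR-465b-5p: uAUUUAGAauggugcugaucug
miR-465c-5p: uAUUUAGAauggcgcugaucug
Among these, let-7g-5p and let-7f-5p share the seed GAGGUAG, and miR-465b-5p and miR-465c-5p share AUUUAGA. The 7 remaining seeds each occur once.

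The depths of the groups overlapped. Reads matching the genome numbered 4465281 to 6706672 in CTCT and 5551605 to 6858901 in PRPR. Total trimmed reads were somewhat higher in PRPR (median 11.8 M reads) than in CTCT (11.2 M reads; permutation test, two-sided, p = 0.0149). Several libraries stood apart before any comparison. In mouse 35F2 (CTCT) the class totals exceeded the genome-matched reads by 9.14%, in mouse 08G5 (PRPR) they fell short of them (-20.06%), and in the other 18 mice the gap was under 0.1%. Mouse 02A6 (CTCT) had the smallest library and an unlike make-up, with 16.1% of its reads in long intergenic RNA (lincRNA) against at most 4.29% in the other CTCT mice. Mouse 47I2 had the highest miRNA share of the 20 mice, 3.79%.

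The lifelong comparison gave few called members. Of 3908 members and class rows with a median of at least 10 reads over the 38 mice, 3 passed an adjusted p of 0.05 (edgeR quasi-likelihood test, Benjamini-Hochberg), which is 0.0768% of those tested, and all 3 were lower in PRPR. One was a piRNA, piR-mmu-14239525, and the other 2 were the Ensembl class rows for sense overlapping transcripts and for bidirectional promoter lncRNAs. No miRNA, tRNA isoacceptor or tRNA end was called. At an unadjusted p under 0.05 the fit counted 51 rows, 1.31% of those tested, made up of 46 piRNA names and 5 class rows. By direction, 32 of the 51 were higher and 19 lower in PRPR. With DESeq2 the same threshold counted 129 rows, 62 of them higher. Without the mice whose totals did not add up (35F2, 08G5, 07C3, whose unmatched totals were incomplete, and the PRCT mouse 31A3) edgeR counted 76, of which 13 were higher.

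The piRNA piR-mmu-14239525 had no read in any PRPR library. Its level in RPM (reads per M genome-matched reads) ran from 0 through a median of 2.60 to 6.49 in CTCT, with reads in 7 of 10 mice and 154 reads in all. In PRPR it was 0 in 10 of 10 mice. A count of 3 reads over the 62.0 M genome-matched reads of the whole PRPR group would be 0.0484 RPM. The pooled CTCT level of 2.51 was 52.0-fold above that floor. This ratio covers counting error only and leaves out the spread between mice, so it is no lower bound on the group difference. In edgeR the log2 difference was -7.05 (interval -9.426 to -4.675). The edgeR adjusted p was 0.00275. The 3 CTCT mice without reads overlap with PRPR, and those counts were low, with at most 39 reads in a CTCT library. The other groups carried this piRNA as well. It had reads in 9 of 9 CTPR mice (lowest 0.949, median 5.63, highest 12.3 RPM) and in 8 of 9 PRCT mice (lowest 0, median 5.97, highest 10.9). PRPR was lower than each of them (edgeR adjusted p = 0.00063 against CTPR and 0.000811 against PRCT), in comparisons that share the same 10 PRPR libraries. In 9 litters the PRPR mouse had a PRCT littermate, and with the litter as block these pairs gave an adjusted p of 0.295 against PRCT in edgeR, with a log2 difference of -7.86. It was tested because the mice of the other 3 groups carried the median over all 38 mice past 10 reads, and a name without reads in a whole group seldom passes that filter. Of the 637529 piRNA names listed, 422285 had no read in any PRPR mouse and 420929 none in any CTCT mouse. Of the 3553 piRNA names that passed the filter, 1 (piR-mmu-14239525) had no read in any PRPR mouse and 0 had none in any CTCT mouse. The fits that left out 1 CTCT or PRPR mouse kept all CTPR and PRCT mice, and every PRPR mouse in them stood at 0. piR-mmu-14239525 passed in each of these fits, which therefore give no separate support for its call. When only the 20 CTCT and PRPR mice were fitted its adjusted p was 0.295, and edgeR then called 0 rows, with 36 at an unadjusted p under 0.05.

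The other 2 called rows rested on mouse 35F2. Sense overlapping transcripts are non-coding RNAs that contain a coding gene in an intron on the same strand. In CTCT their row had a lowest value of 1.47, a median of 3.36 and a highest of 4625 RPM, and in PRPR 2.24, 2.61 and 6.30. Only 35F2 lay above 5.15 among the CTCT mice. Bidirectional promoter lncRNAs start close to a coding gene and run the other way. Their row had 9.29, 14.5 and 6891 RPM in CTCT and 7.03, 11.1 and 13.2 in PRPR, with 35F2 again the high mouse and the next CTCT mouse at 17.5. Without 35F2 the log2 differences shrank to -0.08 for sense overlapping and -0.31 for bidirectional promoter lncRNAs, and piR-mmu-14239525 was then the 1 row called.

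**Figure D1:**
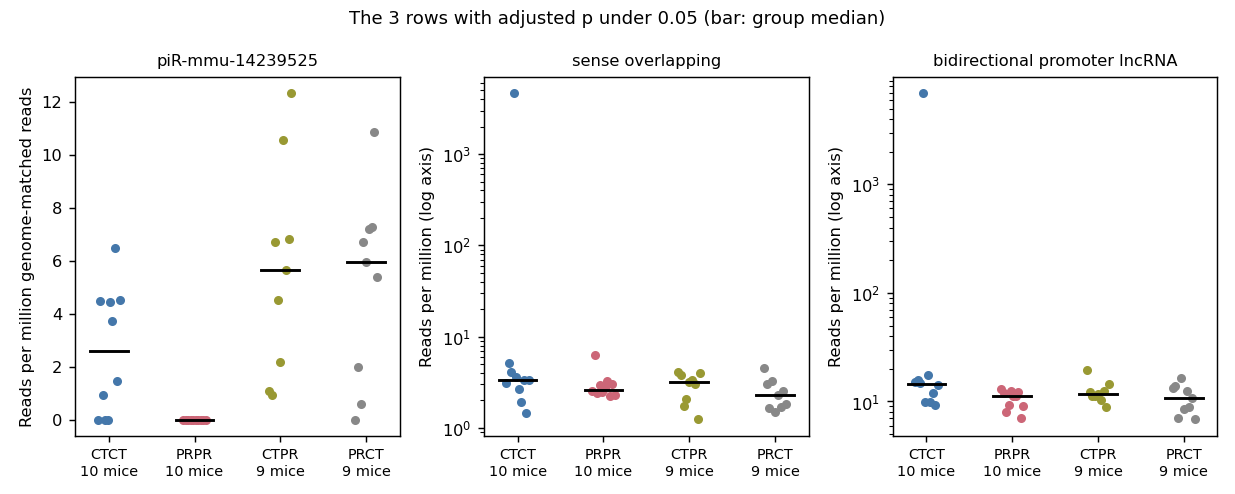
RPM in each mouse (points) of the 4 diet groups, with the group median as a bar, for the 3 rows called between PRPR and CTCT. The y axis is linear for piR-mmu-14239525 and logarithmic for the class rows. The 10 PRPR mice are at 0 for the piRNA, and a single CTCT mouse at 4625 and 6891 stands far above the rest in the class rows.

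Further piRNA names had small unadjusted p values but did not pass the adjusted test. piR-mmu-2919594 ran from 5.73 through 95.7 to 791 RPM in CTCT and from 15.5 through 42.5 to 103 in PRPR. Mouse 02A6 gave the highest value, and the log2 difference was -1.99 ± 0.55 (SE; edgeR adjusted p = 0.53). Without 02A6 the difference was -1.33 (unadjusted p = 0.0107). It passed with TMM scaling factors (adjusted p = 0.0396) and with DESeq2 (0.00122). piR-mmu-10813768 had a lowest value of 14.7, a median of 59.9 and a highest of 151 in CTCT and 22.8, 148 and 306 in PRPR. Most PRPR mice lay above the CTCT median, but the groups overlapped, with a log2 difference of 1.36 (95% interval 0.49 to 2.23, unadjusted p = 0.00306). piR-mmu-14212198 ran from 0.782 through 7.07 to 60.9 in CTCT and from 6.84 through 90.5 to 169 in PRPR. Its log2 difference was 2.29 (0.61 to 3.97, unadjusted p = 0.00873), and the PRPR mice spread over both the low and the high part of that range. The smaller piRNA counts of piR-mmu-12639032 (medians 2.04 and 9.46) and piR-mmu-6159833 (medians 5.92 and 12.8) were also higher at the median in PRPR, with log2 differences of 2.48 and 1.13. Adjusted over all rows, the p of these last 4 names was 1. In CTPR and PRCT, each of the names in this paragraph also lay on the same side of CTCT as in PRPR. The log2 differences from CTCT were -0.63 and -2.03 for piR-mmu-2919594, 1.38 and 1.27 for piR-mmu-10813768, and 3.18 and 1.39 for piR-mmu-14212198. For piR-mmu-12639032 they were 1.92 and 1.86, and for piR-mmu-6159833 1.30 and 0.56. These contrasts share the CTCT mice with the PRPR comparison.

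None of the most abundant piRNA names passed the test. piR-mmu-3744158 had medians of 1111 RPM in CTCT and 1387 in PRPR, and piR-mmu-2819708 had 673 and 638, with a range from 0 to 4194 in CTCT. For piR-mmu-9033385, piR-mmu-9033384, piR-mmu-5619027 and piR-mmu-6814978 the CTCT medians were 264, 317, 262 and 239 and the PRPR medians 476, 292, 321 and 271. The log2 differences of these 6 names lay between -0.39 and 0.42, and their unadjusted p between 0.398 and 0.965. Over all 3553 piRNA names tested, 1605 differences were above 0 and 1948 below, with a median of -0.06. Without litter 47I, 1996 were above 0 and 1557 below, with a median of 0.08. Without the mice whose totals did not add up, 1139 were above 0 and the median was -0.27. Of the 637529 names listed, 640 had reads in all 20 mice.

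**Figure D2:**
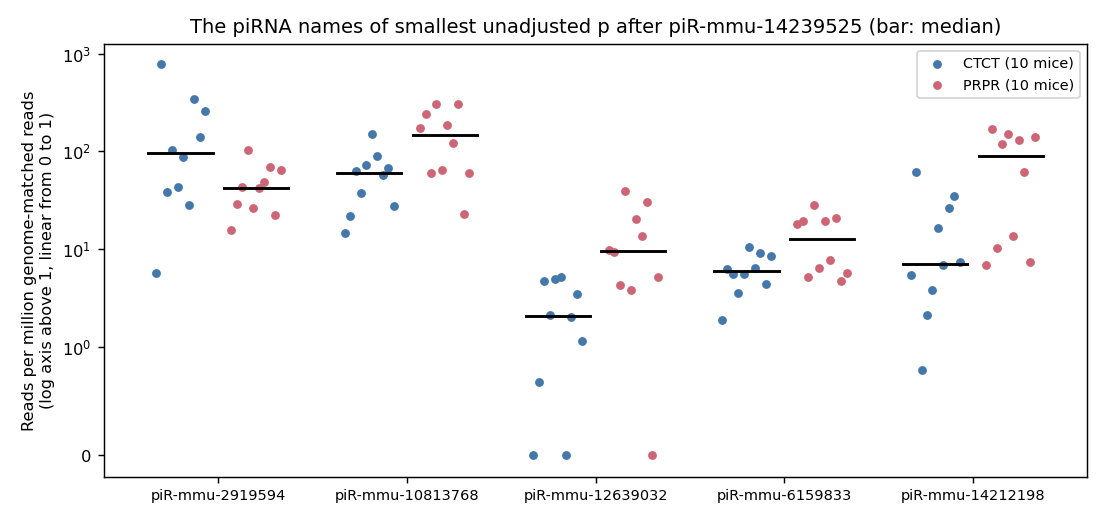
RPM in each CTCT and PRPR mouse (points, with the median as a bar) for the 5 piRNA names that follow piR-mmu-14239525 in order of unadjusted p. The y axis is linear from 0 to 1 and logarithmic above. The PRPR medians lie above the CTCT medians in 4 of the 5 names and below in piR-mmu-2919594, and the groups overlap in all 5.

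No difference was detectable in the abundant sperm miRNAs. mir-148a was the most abundant hairpin, with a lowest value of 162, a median of 3347 and a highest of 8295 RPM in CTCT and 425, 2336 and 6717 in PRPR. mir-143, a miRNA of smooth muscle and connective tissue, had medians of 1343 and 993.0. mir-3535 had medians of 788.7 and 788.0, mir-21a 557 and 398, mir-10a, which lies in a Hox gene cluster, 559 and 466, and let-7g 349.6 and 349.7. Within each group the mir-148a level spread over more than an order of magnitude between mice. The log2 differences of the 6 hairpins lay between -0.39 and 0.30, with unadjusted p between 0.371 and 0.880. Leaving out litter 47I, the differences of mir-148a, mir-143, mir-21a and let-7g changed sign. Over the 188 hairpins tested, of 689 with any read, 107 differences were below 0 and 81 above, with a median log2 difference of -0.06. Without litter 47I, 155 were above 0 and the median was 0.24, and without the PRPR mouse 40H3, 42 were above 0 and the median was -0.28. The median half-width of the 95% interval was 1.22 on the log2 scale, a factor of 2.32.

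The miRNAs of smallest p were not called either. mir-1a-1, a miRNA of skeletal and heart muscle, had a lowest value of 0, a median of 38.3 and a highest of 173 RPM in CTCT and 0, 17.9 and 37.02 in PRPR. Its log2 difference of -1.36 had an interval from -3.25 to 0.53 (unadjusted p = 0.154). mir-451a, a miRNA of red blood cells, ran from 0 through 6.19 to 44.4 in CTCT and from 1.29 through 4.41 to 24.1 in PRPR (unadjusted p = 0.217). The mice 47I2 and 40H3 gave the high values of mir-451a in the respective groups, and its log2 difference of -0.79 became -0.18 without 47I2 (unadjusted p = 0.773) and -1.34 without 40H3 (unadjusted p = 0.0390, adjusted p = 0.999). mir-7241 and mir-128-2 had few reads, with medians of 0 and 0.671 in CTCT and 2.47 and 2.65 in PRPR. mir-871 and mir-465c-2, both miRNAs of the male germ line, had medians of 16.4 and 19.1 in CTCT and 19.8 and 22.4 in PRPR, and unadjusted p of 0.241 and 0.271.

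miRNAs known from the male germ line lay above 0 as a list, without any member passing a test. Of 22 hairpins on the list, 19 were tested, 18 had a difference above 0 and 1 below, and the median log2 difference was 0.35. Over all 188 hairpins 81 were above 0, with a median of -0.06. None of the 19 had an unadjusted p under 0.05, and their smallest was 0.241. mir-34c, made in meiotic and haploid germ cells, had a lowest value of 12.1, a median of 293 and a highest of 904 RPM in CTCT and 90.6, 333 and 1260 in PRPR. mir-881 had 14.9, 228 and 561 in CTCT and 101, 308 and 786 in PRPR. Both pairs of ranges overlapped, and the log2 differences were 0.27 ± 0.55 and 0.45 ± 0.47 (SE). Most of the list lies in 1 stretch of the genome. In RefSeq, 16 of the 20 hairpins with a position lie within 58.6 kb of chromosome X (GRCm38.p6, chrX:66777256-66835842), and 14 of these 16 were tested, 13 of them with a difference above 0. Copies of the mir-465 family differ by few bases or give the same mature sequence. The hairpins mir-465c-1 and mir-465c-2 share miR-465c-5p, and miR-465b-3p and miR-465c-3p are the same sequence. Reads therefore cannot be assigned to single copies with certainty, and neighbours in one cluster are not independent of each other. The count above 0 was 18 of 19 with TMM factors and with DESeq2, against 88 and 70 of all 188 hairpins. Without litter 47I it was 19 of 19, against 155 of 188. Without the PRPR mouse 40H3 it was 12 of 19, with a median of 0.05, against 42 of 188, with a median of -0.28. mir-449c had no read in the 20 mice.

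As a share of all miRNA reads, the germ line list made up 3.00% at the lowest, 5.67% at the median and 8.06% at the highest in CTCT, and 5.63%, 7.03% and 10.8% in PRPR. In CTPR the median was 6.45% and in PRCT 7.07%. These shares describe the list and were not tested. When the reads of the tested hairpins alone served as library size, a choice made after the data were seen, 109 of 188 hairpins were above 0. In that fit 6 of the 188 had an unadjusted p under 0.05, all higher in PRPR. These 6 were mir-741, mir-881 and mir-465b-2 of the germ line list and mir-192, mir-409 and mir-328, and each had an adjusted p of 0.995.

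The epithelial and muscle lists lay mostly below 0 in this fit. All 6 epithelial hairpins (the mir-200 family, mir-141, mir-429 and mir-205) had differences below 0 with a median of -0.38, and 5 of 6 tested muscle hairpins, with a median of -0.34. Over all 188 hairpins tested, 107 were below 0, with a median of -0.06. mir-200c had medians of 178 and 160 RPM in CTCT and PRPR, and mir-200a 200 and 155. The summed epithelial level was 40.0 to 1850 RPM in CTCT and 99.1 to 1323 in PRPR. The summed muscle level, mostly mir-143, was 63.5 to 4243 in CTCT and 250 to 3549 in PRPR, and mir-145a within it had medians of 109 and 74.6. Blood hairpins summed to 5.73 to 94.6 in CTCT and 6.94 to 65.6 in PRPR, with mir-223, a myeloid miRNA, at medians of 7.43 and 7.30, 1 of 3 tested members above 0, and 1 of the 8 listed without a read. mir-126a of endothelium had medians of 91.1 and 65.8. The liver miRNA mir-122 was near 0, with at most 3.60 RPM in any of the 20 mice, and the neuronal list summed to at most 17.5, with mir-9-2 and mir-9-3 at medians between 1.34 and 1.95 and its 1 tested hairpin above 0 (log2 difference 0.15). Without litter 47I, 2 of 6 epithelial and 4 of 6 muscle differences were above 0. Over all 188 tested hairpins 155 were, both without the litter and without 47I2 alone. Without 47I2, 2 of 3 blood differences were above 0, and the log2 difference of mir-126a went from -0.24 to 0.14. The part of these cell types in the other results was not tested, and in bulk sperm RNA fewer cells of a type and less RNA per cell cannot be told apart.

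No member of the other miRNA family lists passed the test. Beside the counts that follow, 107 of all 188 tested hairpins were below 0, and 155 were above 0 without litter 47I. All 12 tested let-7 hairpins were below 0 with a median of -0.13 (11 of 12 with TMM factors), but 9 of 12 were above 0 without litter 47I. let-7f-2 had medians of 354 and 230 RPM. The mir-10, mir-99/100 and mir-125 family had 7 of 8 differences below 0 (median -0.22), with mir-99a at medians of 444 and 348. For mir-30 6 of 6 were below 0 (median -0.18), with mir-30a at 395 and 259 and mir-30d at 128 and 114. The cluster of mir-183, mir-96 and mir-182 had 3 of 3 below 0 (median -0.31), with mir-182 at 62.7 and 50.3 and mir-183 at 33.9 and 33.2. The mir-29 family had 3 of 3 below 0 (median -0.26), with mir-29a at 76.3 and 46.2 and mir-29c at 2.41 and 2.21. The mir-26 family had 3 of 3 below 0 (median -0.28), with mir-26a-1 at 159.6 and 205.4 and mir-26a-2 at 137 and 82.9. The mir-15/16 family had 3 of 3 below 0 (median -0.16), with mir-16-1 at 20.0 and 15.4 and mir-16-2 at 17.9 and 20.7. The hairpins mir-26a-1 and mir-26a-2 give the same mature miR-26a-5p, and mir-16-1 and mir-16-2 the same miR-16-5p. Reads of these sequences cannot be assigned to single copies with certainty, and the rows of such copies are not independent members. The mir-17-92 and mir-106b-25 clusters, which act in cell proliferation, had 6 of 7 above 0 (median 0.18), against 5 of 7 with TMM factors, 3 of 7 with DESeq2 and 1 of 7 without 40H3, with mir-25 at 34.9 and 41.7 and mir-92a-1 at 27.1 and 24.3. Of the sperm miRNAs studied after paternal stress, 2 of 6 tested were above 0 (median -0.06), against 4 of 6 with TMM factors and 1 of 6 without 40H3, and mir-30c-1 stood at 53.0 and 39.6. No member of these 9 lists had an unadjusted p under 0.05. Over all 188 hairpins, 88 were above 0 with TMM factors, 70 with DESeq2 and 42 without 40H3. Without litter 47I the medians of the let-7, mir-10, mir-30, mir-29, mir-26, mir-15/16 and stress lists were above 0, and that of the mir-183 cluster was -0.05. The median over all hairpins was then 0.24.

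**Figure D3:**
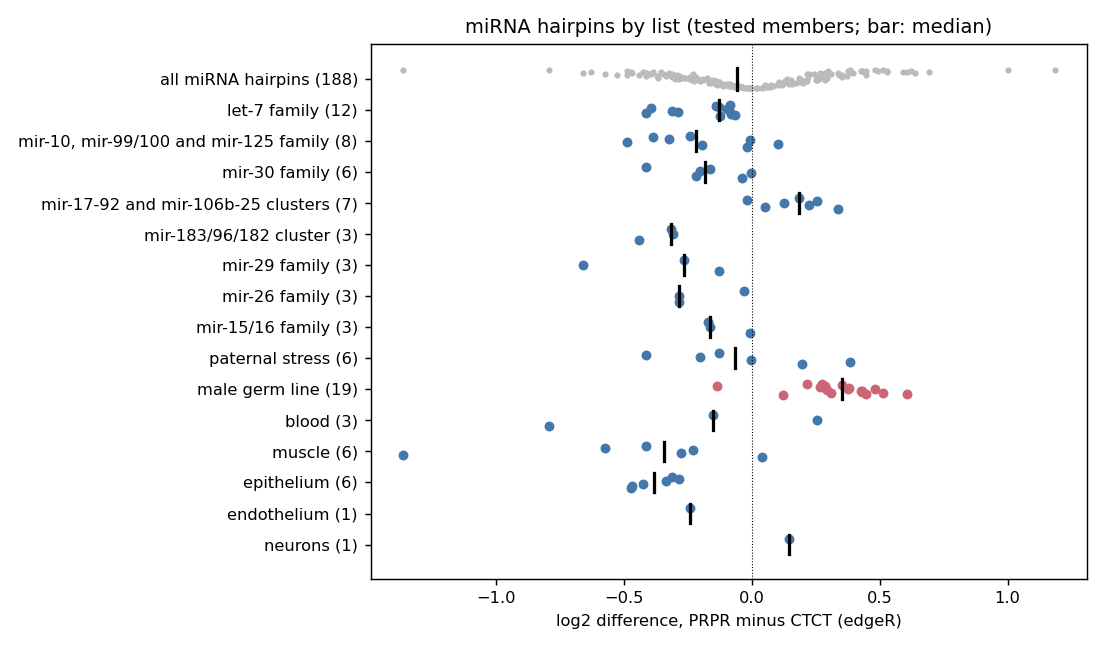
Log2 difference (PRPR minus CTCT, edgeR) of each tested miRNA hairpin (points), for all 188 hairpins and by list, with the median as a bar and the number tested in parentheses. The male germ line list (red) has 18 of 19 members above 0 and a median of 0.35, where 81 of all 188 hairpins lie above 0. Without the PRPR mouse 40H3 these counts are 12 and 42. The epithelial list has 6 of 6 below 0, where 107 of all 188 lie below.

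No tRNA fragment row passed the test, and the side of 0 on which most isoacceptor rows lay turned with the library size used. tRNA reads made up 2.75% at the lowest, 9.29% at the median and 16.4% at the highest of the genome-matched reads in CTCT and 6.02%, 10.6% and 19.2% in PRPR. The difference in means was 1.94 percentage points (95% interval -2.11 to 6.00, permutation test p = 0.324, n = 10 and 10). The 5′ end rows accounted for most of it, with 8.15% and 9.20% at the median. As a percent of tRNA reads the 5′ end was 82.4, 85.9 and 91.2 (lowest, median, highest) in CTCT and 83.0, 84.9 and 89.4 in PRPR, a difference of -0.46 points (interval -2.67 to 1.75, p = 0.667). The 3′ ends and the CCA ends, the latter with the tail to which the amino acid is attached, each gave under 1% of tRNA reads in each of the 20 mice.

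Among the isoacceptor rows 39 of 47 tested differences were above 0, with a median of 0.19, where 46.3% of all rows tested were above 0. With TMM factors 33 of 47 and with DESeq2 28 of 47 were above 0. With the reads of these isoacceptor rows as library size, a choice made after the data were seen, 15 of 47 were above 0 and the median was -0.14. Without the PRPR mouse 46I3 the count was 26 of 47, with a median of 0.07. Isoacceptors share each library's scaling, so these signs are not independent. None reached an unadjusted p of 0.05, against 2 rows each with TMM factors and with DESeq2. Summed over their ends, 37 of 50 isoacceptors were above 0, 0 had an unadjusted p under 0.05 (0% of those tested), and the smallest p was 0.0516. The smallest p among the isoacceptor rows, 0.123, belonged to tRNA-Glu-TTC, which ran from 830 through 1896 to 3674 RPM in CTCT and from 1426 through 2587 to 6116 in PRPR. tRNA-Thr-CGT and tRNA-Thr-AGT had medians of 16.2 and 51.1 in CTCT and 28.2 and 81.5 in PRPR, with log2 differences of 0.76 and 0.82. As sums of their ends they had log2 differences of -0.42 and 0.40, so that tRNA-Thr-CGT changed side. The tRNA-His-GTG row had medians of 1056 and 1607, and tRNA-Leu-CAA 50.4 and 63.5. Of the 24 tested isoacceptors of essential amino acids, which mice take from the diet, 22 were above 0 (median 0.27), against 17 of 23 for the rest (median 0.14), and these counts were 21 and 12 with TMM factors, 18 and 10 with DESeq2 and 15 and 11 without 46I3.

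tRNA-Gly and tRNA-Glu supplied most of the tRNA reads. tRNA-Gly was 58.0% of tRNA reads at the median in CTCT and 58.0% in PRPR, and tRNA-Glu 17.1% and 20.7%. tRNA-Gly-GCC, the leading row, ran from 11161 through 45720 to 92195 RPM in CTCT and from 28178 through 57079 to 89852 in PRPR (log2 difference 0.24, interval -0.50 to 0.98). In the 5′ end rows the larger count stood under tRNA-Gly-CCC, with medians of 40557 and 52169, while tRNA-Gly-GCC had 5122.5 and 6081.5 there. The Gly-CCC isoacceptor row had 6954.5 and 7531, with PRPR mice from 409 to 31362. The files thus place glycine reads under different names in the 2 kinds of row, and the values of single glycine rows are uncertain. The summed tRNA-Gly level ran from 11863 through 51132 to 99203 in CTCT and from 29314 through 64864 to 120485 in PRPR. tRNA-Glu-CTC had medians of 15363 and 21279 (log2 difference 0.26, and -0.20 with TMM and -0.22 with DESeq2). Its 5′ end row had 14172 and 19837. The list counts of differences above 0 were 3 of 4 for tRNA-Gly, 2 of 2 for tRNA-Glu, 2 of 2 for tRNA-Lys, 1 of 1 for tRNA-His and 2 of 3 for tRNA-Val. With TMM factors they were 2 of 4, 1 of 2, 2 of 2, 1 of 1 and 2 of 3, and with DESeq2 2 of 4, 1 of 2, 1 of 2, 1 of 1 and 1 of 3.

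tRNA-Lys and tRNA-Val came next in abundance. tRNA-Lys-CTT had medians of 7082 and 7013 in CTCT and PRPR and its 5′ end row 6412 and 5998, while tRNA-Lys-TTT had 197 and 244. tRNA-Val-CAC had 6510 and 5002, with mouse 46I3 at 15936 as the high PRPR value, and tRNA-Val-AAC 1534 and 2131. In the 5′ end rows tRNA-Val-AAC took the larger share, with 6399 and 5871, more than in its isoacceptor row. Summed over its ends, tRNA-Val-CAC had only 1180 and 864. As with glycine, valine reads thus stand under different names in the isoacceptor rows and the end rows, and the values of single valine rows are uncertain. tRNA-His-ATG had no read in CTCT and at most 0.172 RPM in PRPR.

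By end, 27 of 30 tested 3′ rows and 23 of 24 tested CCA rows were above 0, with medians of 0.27 and 0.34, against 23 of 37 for 5′ rows with a median of 0.05. With TMM factors these counts were 27, 20 and 12, and with DESeq2 26, 22 and 11, so that the 5′ rows changed side. Without 40H3, 18 of 30 3′ rows and 19 of 24 CCA rows were above 0 (medians 0.06 and 0.12), and without 46I3, 15 of 37 5′ rows (median -0.07). The rows of smallest p were tRNA-SeC-TCA 3′ (selenocysteine; medians 3.98 and 7.44, unadjusted p = 0.0616), tRNA-His-GTG 5′ (768 and 1199, p = 0.0657) and tRNA-Thr-TGT CCA (6.70 and 10.8, p = 0.0818). tRNA-Glu-TTC 5′ had medians of 1468 and 1984 (p = 0.0901), tRNA-Asn-GTT 3′ 31.0 and 60.8, and tRNA-Leu-AAG CCA 2.51 and 3.37. In each of these 6 rows the ranges of the groups overlapped.

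**Figure D4:**
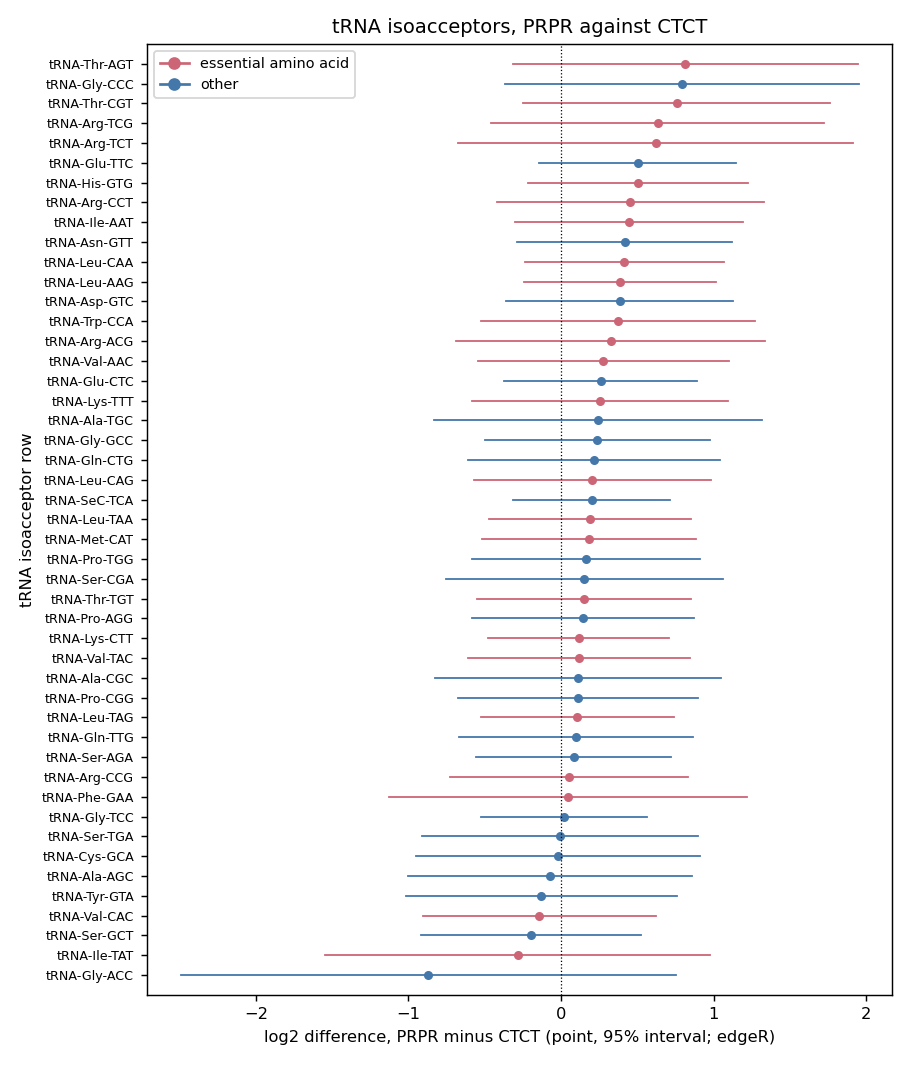
Log2 difference (PRPR minus CTCT, edgeR) with its 95% interval for the 47 tested tRNA isoacceptor rows, ordered by size, with essential amino acids in red. All 47 intervals include 0, and 39 of the points lie to the right of it (15 with the reads of these rows as library size).

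**Figure D5:**
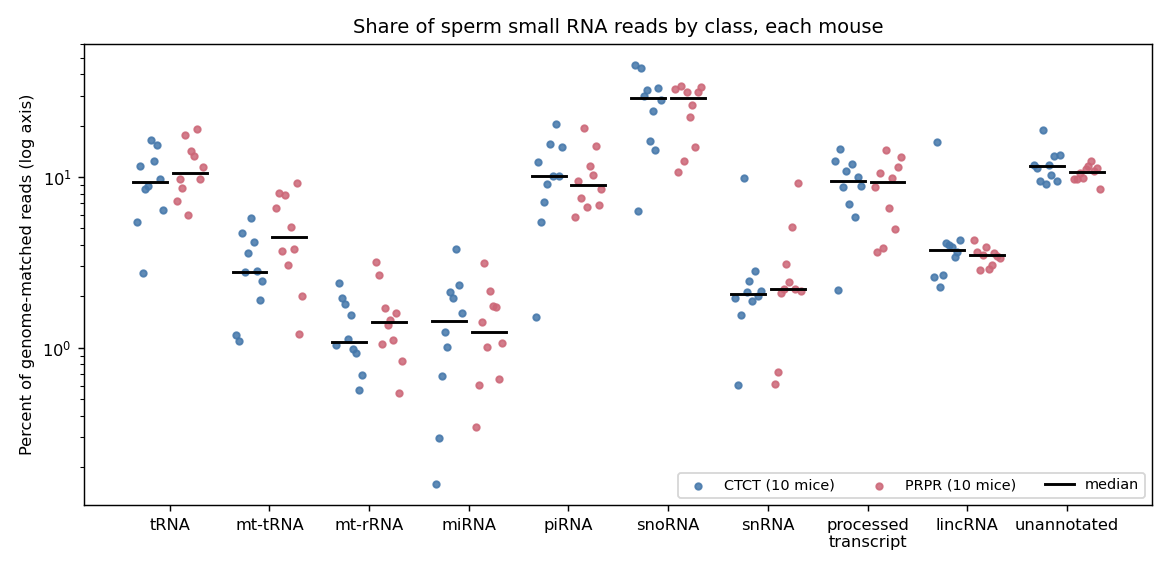
Percent of genome-matched reads in each of 10 annotation classes (log axis), with 1 point per CTCT (blue) or PRPR (red) mouse and the median as a bar. The groups overlap in every class. The mt-tRNA median is 2.79% in CTCT and 4.45% in PRPR, and single CTCT mice stand apart in snRNA (9.90%) and lincRNA (16.1%).

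Reads of mitochondrial tRNA (mt-tRNA), which is encoded in the mitochondrial genome and serves translation inside the mitochondrion, had the smallest permutation p among the classes above 0.1% of reads, without passing the test. They were 1.10% at the lowest, 2.79% at the median and 5.74% at the highest in CTCT and 1.21%, 4.45% and 9.24% in PRPR. The 4 PRPR mice 14A5, 40H3, 08G5 and 46I3 lay above every CTCT mouse, while 51O3 lay near the CTCT minimum. The difference in means was 2.03 percentage points (interval -0.10 to 4.17, permutation test p = 0.0567, adjusted over 32 class rows p = 0.709). In the edgeR fit the log2 difference was 0.74 ± 0.30 (SE, unadjusted p = 0.0193, adjusted p = 1). Without 35F2, 07C3 and 08G5 the difference was 1.43 points (permutation p = 0.207). With 1 mouse left out the unadjusted permutation p ran from 0.0199 to 0.111. CTPR and PRCT had medians of 4.92% and 5.86%. Against CTCT, their log2 differences were 0.87 and 0.89 (unadjusted p = 0.00758 and 0.00642, adjusted 0.791 and 1), in comparisons that share the CTCT mice with the PRPR comparison. PRPR differed from CTPR by -0.13 and from PRCT by -0.15. With the litter as block, edgeR gave 0.82 for CTPR against CTCT in 8 litters (unadjusted p = 0.0243, adjusted p = 0.998). For PRPR against PRCT in 9 litters it gave -0.30 (unadjusted p = 0.352). Mitochondrial rRNA had medians of 1.08% and 1.41% (p = 0.456).

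The ranges of the remaining classes overlapped. Of 32 class rows, 1 had an unadjusted permutation p under 0.05 (3.12%), the bidirectional promoter lncRNA row with p = 0.0206, in which 35F2 was the highest mouse. Small nucleolar RNA was the largest class, with 6.30%, 29.0% and 45.3% (lowest, median, highest) in CTCT and 10.6%, 28.9% and 34.2% in PRPR. Small nuclear RNA of the spliceosome had medians of 2.07% and 2.21%, with 35F2 (9.90%) and the PRPR mouse 51O3 (9.22%) above the rest. The piRNA class ran from 1.52% through 10.1% to 20.5% in CTCT and from 5.87% through 9.01% to 19.3% in PRPR. The miRBase miRNA class had medians of 1.43% and 1.24%, and the Ensembl miRNA row 2.18% and 2.13%. The ribosomal rows had medians of 0.674% and 0.627% (Ensembl) and 1.39% and 1.32% (Rfam). The processed transcript row had 9.44% and 9.33%, lincRNA 3.76% and 3.48%, misc_RNA 0.166% and 0.161%, and antisense RNA 0.202% and 0.241%. The Rfam rows named DNA, mRNA and other had 10.7% and 11.1%, 0.95% and 0.868%, and 0.451% and 0.563%, and unannotated reads 11.5% and 10.7%. The permutation p of these rows lay between 0.204 and 0.903.

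The other diet contrasts, fitted in the same model, had 4 called rows for CTPR against CTCT and 2 for PRCT against CTCT, with 212 and 59 rows at an unadjusted p under 0.05 beside the 51 of PRPR. Both PRCT calls and 2 of the 4 CTPR calls were the sense overlapping and bidirectional promoter rows, and without 35F2 the calls were 1 for CTPR and 0 for PRCT. The 1 left for CTPR was the tRNA CCA end class row, in which 1 CTPR library stood at 12.8% of genome-matched reads against a CTPR median of 0.0595%. In 8 litters a CTCT and a CTPR mouse were littermates, and with the litter as block edgeR called 0 rows between them, with 138 at an unadjusted p under 0.05. Whether these numbers differ was not tested, and all 3 contrasts share the CTCT mice.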

How the data were processed

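Small RNA of sperm from 38 mice was sequenced. The authors mapped the reads to mm10 (also named in the submitters' processing notes) and to miRNA, tRNA, piRNA, rRNA and other annotation with SPORTS, and deposited raw read counts per mouse, as class totals and counts of named members. Genome-matched rows were used, and RPM was computed here. The members and lists were chosen with earlier results of these data known. Differences came from edgeR 4.0.16 (glmQLFTest, R 4.3.3) on all 38 mice in 4 groups, with genome-matched reads as library size, for rows with a median of at least 10 reads. DESeq2 1.42.0 was an alternative. Class percents were compared by two-sided permutation tests (100000 resamples). Features named were those called, the 6 of smallest p and the 6 of highest level in each of miRNA, piRNA, tRNA end and isoacceptor rows, classes of at least 0.1%, and the 2 highest of each list. Intervals are 95%, and the floor of 3 reads covers counting error only. The scripts were tested on simulated data.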

Additional observations from a re-analysis of the deposited data

Results flagged for a closer look

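In 24 of 138 groups of 10 mice examined, the highest mouse lay farther from the rest than Dixon's 95% critical value allows for the gap over the range. The groups reuse the same CTCT and PRPR mice over related rows, and only the highest mouse was examined. The count of 24 therefore cannot be set against a chance rate, and it serves only to point out single mice. Mouse 02A6 (CTCT) was far above the other CTCT mice in the Rfam rows DNA (27.4% of genome-matched reads, next 11.6%), mRNA (2.71%), other (1.12%) and rRNA (2.88%), in lincRNA (16.1%, next 4.29%), and in piR-mmu-2919594 (791 RPM) and piR-mmu-6814978 (1344 RPM).

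Mouse 35F2 (CTCT) was far above in unannotated reads (18.9%), misc_RNA (4.57%, next 0.300%), snRNA (9.90%), sense overlapping transcripts (4625 RPM) and bidirectional promoter lncRNA (6891 RPM). Mouse 47I2 (CTCT), whose label and listed group differ, was far above in mir-451a (44.4 RPM), mir-21a (1733.5 RPM), piR-mmu-2819708 (4194 RPM), piR-mmu-9033384 (1624 RPM) and tRNA-Leu-AAG CCA (5.99 RPM). Mouse 45L3 (CTCT) had 8.41 RPM of mir-128-2.

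In PRPR, single mice stood apart in snRNA (51O3, 9.22%), sense overlapping transcripts (08G5, 6.30 RPM), mir-451a (40H3, 24.05 RPM), mir-3535 (36K3, 2271 RPM), the 5′ end of tRNA-Val-AAC (46I3, 16193 RPM) and tRNA-Val-CAC (46I3, 15936 RPM).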

How the results depend on the processing

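Of 1905 values recomputed over 74 results, 1770 kept direction and side of the threshold, 103 changed sign, in 29 results, and the others moved or crossed a threshold. The cause of these changes was not tested. The 3 called rows became 1 at a median of at least 50 reads, 1 without the mice of doubtful totals (35F2, 07C3, 08G5, 31A3), 783 of 638435 without a filter, and 0 with PRPR and CTCT alone, and ranged from 1 (without 35F2) to 3 with 1 mouse left out. The filter was set because an earlier check on simulated counts of these data gave many false calls for sparse rows. Counts without a filter are therefore not read as differences between the groups. The 51 rows at an unadjusted p under 0.05 became 129 with DESeq2, 178 with filterByExpr, 24 at a median of 50 and 30805 without a filter, and 42 to 70 with 1 mouse left out. Isoacceptor sums gave 1 with PRPR and CTCT alone and 0 to 2 with 1 mouse left out. Class differences that changed sign without the doubtful mice were Rfam other (-0.0298), antisense (-0.0259), misc_RNA (0.00347), processed transcript (0.406), Ensembl rRNA (-0.0351) and snoRNA (1.85 points). Antisense was -0.000679 per clean reads and -0.00119 outside snoRNA. On the log2 scale Rfam DNA was 0.0212, miRBase miRNA 0.0866 and piRNA 0.0829, and without litter 47I miRNA was 0.121 and piRNA 0.556 points. Leaving out 1 mouse gave, in points, -1.04 to 1.31 for Rfam DNA, -0.146 to 0.0957 for Rfam mRNA, -0.151 to 0.0755 for Rfam rRNA, 1.57 to 2.46 for mt-tRNA, -0.0101 to 0.0219 for antisense, -1.52 to 0.0122 for lincRNA, -0.329 to 0.0526 for Ensembl miRNA, -1.28 to 0.0937 for processed transcript, -0.0244 to 0.0678 for Ensembl rRNA, -0.456 to 1.03 for snRNA, -0.327 to 0.121 for miRBase miRNA, -1.56 to 0.556 for piRNA and -0.895 to 0.123 for the 5′ share. On the log2 scale, without litter 47I, mir-148a was 0.057, mir-143 0.0536, mir-21a 0.218, let-7g 0.184, piR-mmu-9033384 0.214 and tRNA-Val-AAC 5′ 0.0736. With the deposited labels mir-21a was 0.00749, piR-mmu-9033384 0.000362 and tRNA-Val-AAC 5′ 0.0551. Without the doubtful mice piR-mmu-2819708 was -0.121 and tRNA-Gly-GCC 5′ -0.0129. With TMM and DESeq2, tRNA-Glu-CTC 5′ was -0.22 and -0.24, tRNA-Lys-CTT 5′ -0.0114 and -0.0542, tRNA-Gly-GCC 5′ -0.171 and -0.199 and tRNA-Glu-CTC -0.198 and -0.22, and tRNA-Lys-CTT was -0.0400 with DESeq2. Leaving out 1 mouse gave -0.435 to 0.057 for mir-148a, -0.514 to 0.0536 for mir-143, -0.373 to 0.218 for mir-21a, -0.312 to 0.184 for let-7g, -0.233 to 0.712 for piR-mmu-2819708, -0.213 to 0.197 for piR-mmu-5619027, -0.601 to 0.214 for piR-mmu-9033384, -0.356 to 0.304 for piR-mmu-6814978, -0.265 to 0.146 for tRNA-Val-AAC 5′, -0.0283 to 0.223 for tRNA-Lys-CTT 5′, -0.11 to 0.144 for tRNA-Gly-GCC 5′ and -0.0146 to 0.238 for tRNA-Lys-CTT. No paired analysis was possible because the replicate numbers are mouse identifiers and no litter holds both a PRPR and a CTCT mouse. Between PRPR and PRCT littermates (9 litters) the fit with the litter as block called 0 rows, with 48 at an unadjusted p under 0.05, against 1 and 23 without the block. At 4465281 to 6858901 genome-matched reads per library the median interval was a factor of 2.32 either way per miRNA and 3.07 per piRNA name.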

Other observations

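Reads that did not match the genome were also listed by class. As a percent of all trimmed reads, unannotated unmatched reads had medians of 31.2% in CTCT and 32.4% in PRPR, and the piRNA row 5.49% and 5.92% (permutation p = 0.188 and 0.617). None of the 19 unmatched class rows had a permutation p under 0.05.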
